A study of Homo sapiens with 15 samples.

Results

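Neural retina (NR) layers of retinal organoids at day 150 (D150-ROs) were compared with those at day 70 (D70-ROs) across all genes. ROs are retina-like tissues that form in culture from human induced pluripotent stem cells (hiPSCs). The comparison took the 6 libraries labelled D70-RO and D150-RO, 3 of each, out of 15 libraries in the series, and 12855 of the 19684 genes in the deposited table reached the level needed for a test. The members are therefore these 6 libraries, taken by their labels, and all genes, with no cut on a measured value except the level needed for a test. Earlier results of these data were known when the comparison was chosen. The other 9 libraries were undifferentiated hiPSCs and cultured Müller glia and entered no result here except that the hiPSCs were added to 1 alternative fit.

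Both groups came from a single hiPSC line, BC1-GFP, for which the labels name no genetic change or treatment, so that all libraries share 1 genetic background. ROs were grown in suspension in retinal medium with 10% fetal bovine serum and taurine. The D70-ROs were taken while the medium held the B27 supplement, and the D150-ROs after B27 had been replaced by N2 from day 90. Stage and supplement therefore cannot be told apart. The NR layers of 5 ROs were pooled per experiment, and the sample descriptions give 3 independent experiments per group, while the description of the series gives 2 for ROs with 3 to 5 ROs in each. If the latter holds, some of the 3 libraries of a group share an experiment, and p-values then measure a spread that is partly technical. The series description also names 2 sequencing companies, where the methods name 1, without linking libraries to either, so a sequencing batch that follows the stage cannot be told apart from it. It further mentions a correction for batches in joint analyses, and the sources used here do not say whether the deposited values had been corrected.

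All retinal neurons and the Müller glia arise from a common pool of dividing progenitors in an order conserved among vertebrates. Ganglion cells, horizontal cells and cones are generated early, and rods, bipolar cells and Müller glia late. Photoreceptors mature last of the neurons, when they assemble outer segments and ribbon synapses and express the proteins of phototransduction, the cascade that turns a photon into a change of membrane potential through a visual pigment, transducin, a cGMP phosphodiesterase and cGMP-gated channels.

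Poly(A) RNA was sequenced, and the deposited values are expected counts, which are estimates of the reads from each gene, and FPKM (fragments scaled by transcript length and by the mapped reads of the library). Levels are given below as FPKM and changes as log2 fold changes of D150-ROs over D70-ROs from counts, tested with the quasi-likelihood method of edgeR and adjusted by Benjamini-Hochberg over all 12855 genes. Numbers in parentheses after a gene are these log2 fold changes, with the standard error (SE). Calls needed a change of at least 2-fold and an adjusted p below 0.05. Library totals were 11349600 to 19722949 expected counts at day 70 and 15448141 to 16476580 at day 150. The log2 of counts scaled to library size (CPM) correlated at 0.968 to 0.990 among D70-ROs, at 0.991 to 0.992 among D150-ROs and at 0.761 to 0.818 between groups. D70-RO replicate 2 had the lowest total and stood apart from the other D70-ROs, with a median absolute log2 difference of 0.252 and 0.278 to them against 0.122 between them. In bulk RNA, fewer cells of a type and less RNA per cell cannot be told apart.

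Of the genes tested, 2131 (16.6%) were higher and 2145 (16.7%) lower in D150-ROs, together 33.3%, and the adjusted p alone was passed by 73.9%. The change was at least 4-fold for 691 of the higher and 610 of the lower genes, and at least 16-fold for 114 and 51. The CPM of the 2 groups did not overlap for 79.3% of genes. The median log2 fold change over all genes tested was −0.01. Genes were also read in lists by cell type and function. Some members of the photoreceptor, bipolar, gliogenic and ganglion cell lists reached the filter on low values through the group where they were high and so had to differ. Their number is given with each list, and the counts of those lists are descriptions. None of the 28 cell cycle genes was of this kind.

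**Figure D1:**
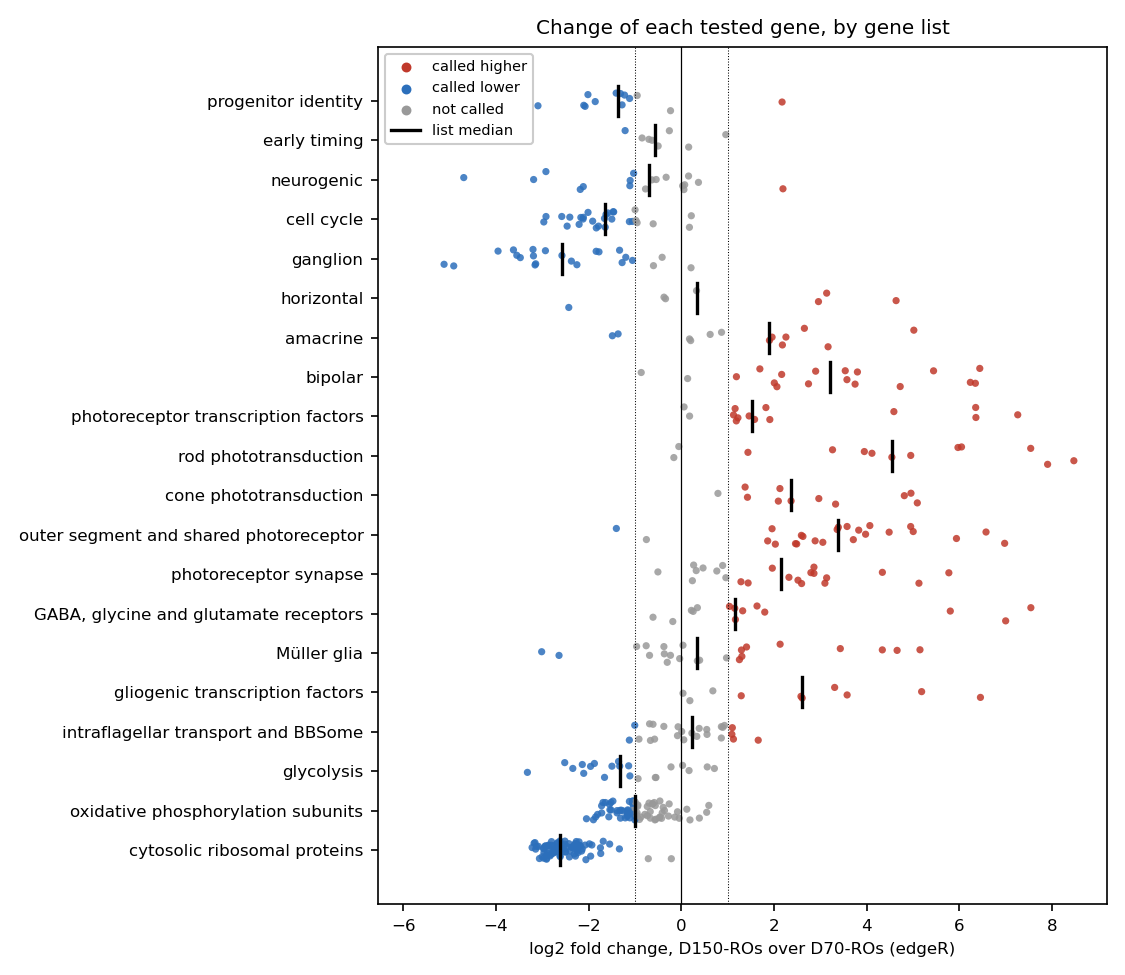
Log2 fold change (x axis) of every tested gene of 20 lists (rows), red where called higher in D150-ROs, blue where called lower and grey where not called, with the median of each list as a black bar and dotted lines at a 2-fold change. The medians ran from −2.62 for ribosomal proteins to 4.55 for rod phototransduction.

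Most progenitor genes fell. Of 14 genes that mark retinal progenitor identity, 11 were called lower and 1 higher, against 16.7% and 16.6% over all genes. The median was −1.36. SFRP2, a secreted Wnt modulator, had the highest level of the list and went from 690, 649 and 601 FPKM in the 3 D70-ROs to 194, 222 and 209 in the D150-ROs (log2 fold change −1.86, SE 0.09, adjusted p = 5.75e-07 by edgeR). PAX6, which stays on in amacrine and ganglion cells, went from 349, 357 and 380 to 167, 176 and 135 (−1.31, SE 0.11). In both genes the groups did not overlap. FGF19, a growth factor of the early retina, fell most, from 15.8, 21.8 and 20.0 FPKM to 0.34, 0.30 and 0.52 (−5.83, SE 0.23). The gene called higher was NES, which encodes the intermediate filament nestin and rose from 30.3, 34.1 and 38.8 FPKM to 198, 201 and 144 (2.17, SE 0.15, adjusted p = 3.60e-06 by edgeR). SIX3 (−0.95) and SOX2 (−0.23) were not called.

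Of 28 cell cycle genes, 22 were called lower, against 16.7% over all genes, with a median of −1.65. AURKB, a mitotic kinase, went from 14.9, 16.3 and 15.99 FPKM to 1.49, 2.59 and 2.70 (−2.97, SE 0.23). TYMS, the thymidylate synthase of DNA replication, went from 108, 99.7 and 96.0 to 26.2, 28.1 and 25.8 (−2.17, SE 0.09). MKI67, which encodes the proliferation marker Ki67, did not follow them: it had 6.98, 4.42 and 10.4 FPKM at day 70 and 4.31, 5.71 and 6.58 at day 150, with overlapping groups and no call (−0.61, SE 0.27, adjusted p = 0.065 by edgeR). With a trend on transcript length removed, however, MKI67 was called lower, with a log2 fold change of −1.66. PCNA, the replication clamp, had a log2 fold change of −0.999 that lay just under the 2-fold limit, and passed it without D70-RO replicate 2 (−1.15), D150-RO replicate 2 (−1.07) or D150-RO replicate 3 (−1.01).

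Among 18 neurogenic genes, which act as progenitors leave the cycle, 8 were called lower and 1 higher, against 16.7% and 16.6% over all genes. The median was −0.70. ATOH7, the factor that makes progenitors competent for the ganglion cell fate, went from 67.2, 78.9 and 62.6 FPKM to 2.45, 3.27 and 3.65 (−4.70, SE 0.17, adjusted p = 1.35e-07 by edgeR). The Notch ligand DLL3 (−3.19, SE 0.14), HES6 (−2.92, SE 0.15) and the low OLIG2 (−2.18, SE 0.29) fell as well. NEUROG1, a proneural factor, rose from 3.50, 2.01 and 2.89 FPKM to 13.2, 16.9 and 15.5 (2.19, SE 0.19). GADD45G, which had 41.5 to 50.3 FPKM at day 70 and 59.3 to 61.5 at day 150, was not called (0.16). Of 8 genes of early developmental timing, the chromatin protein HMGA1 alone was called (−1.21, SE 0.15). This share of 1 in 8 called lower was near the 16.7% over all genes. The RNA-binding IGF2BP1 was 0.85 lower on the log2 scale, short of the 2-fold limit.

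Most ganglion cell genes fell. Of 23 members tested of 25, 20 were called lower, with a median of −2.58, against 16.7% lower over all genes. POU4F2, a transcription factor of ganglion cells also known as BRN3B, went from 23.6, 16.6 and 26.0 FPKM to 0.51, 0.70 and 0.98 (−5.12, SE 0.24, adjusted p = 4.18e-07 by edgeR). ISL1, its partner, went from 22.5, 14.01 and 26.0 to 2.13, 2.39 and 1.68 (−3.55, SE 0.24). STMN2, a tubulin-binding protein of growing axons, had the highest level and went from 439, 313 and 438 to 53.4, 60.8 and 43.8 (−3.19, SE 0.16). The groups did not overlap in any of these, and D70-RO replicate 2 was the lowest of the D70-ROs in each. SNCG (−4.91), EBF3 (−3.96), POU4F1 (−3.20) and the growth cone protein GAP43 (−2.25) were also called lower. INA (−0.60), NHLH2 (−0.41) and L1CAM (0.21) were not called. Of the 23 genes, 6 passed the filter on low values through the D70-ROs only. Without D70-RO replicate 2, the same number of genes was called lower.

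Most photoreceptor regulators rose. Of 14 transcription factors and cofactors, 12 were called higher, against 16.6% over all genes, with a median of 1.52. Of the 14, 4 passed the filter through the D150-ROs only, SAMD7 and NR2E3 among them. The factors of the common photoreceptor lineage were already high at day 70. OTX2 went from 127, 132 and 137 FPKM to 468, 419 and 454 (1.58, SE 0.08), and CRX from 35.3, 38.8 and 38.5 to 140, 136 and 150 (1.83, SE 0.08, adjusted p = 4.05e-07 by edgeR). NEUROD1 rose by 1.13 on the log2 scale. The factors of rod identity started near 0. NRL, which directs cells to the rod fate, went from 2.65, 4.07 and 2.43 FPKM to 238, 215 and 180 (6.35, SE 0.21). NR2E3, its target and a repressor of cone genes, went from 0.58, 0.61 and 0.66 to 63.0, 61.7 and 52.3 (6.36, SE 0.15). SAMD7, a Polycomb-associated protein of rods, rose most (7.26, SE 0.22). Both genes without a call have roles in cones. THRB, the thyroid hormone receptor needed for cone opsin choice, had 26.98 to 36.3 FPKM at day 70 and 30.2 to 41.6 at day 150 (0.06, SE 0.14). RXRG, a partner receptor, had 47.7 to 52.1 and 60.1 to 75.9 FPKM (0.18, SE 0.11).

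**Figure D2:**
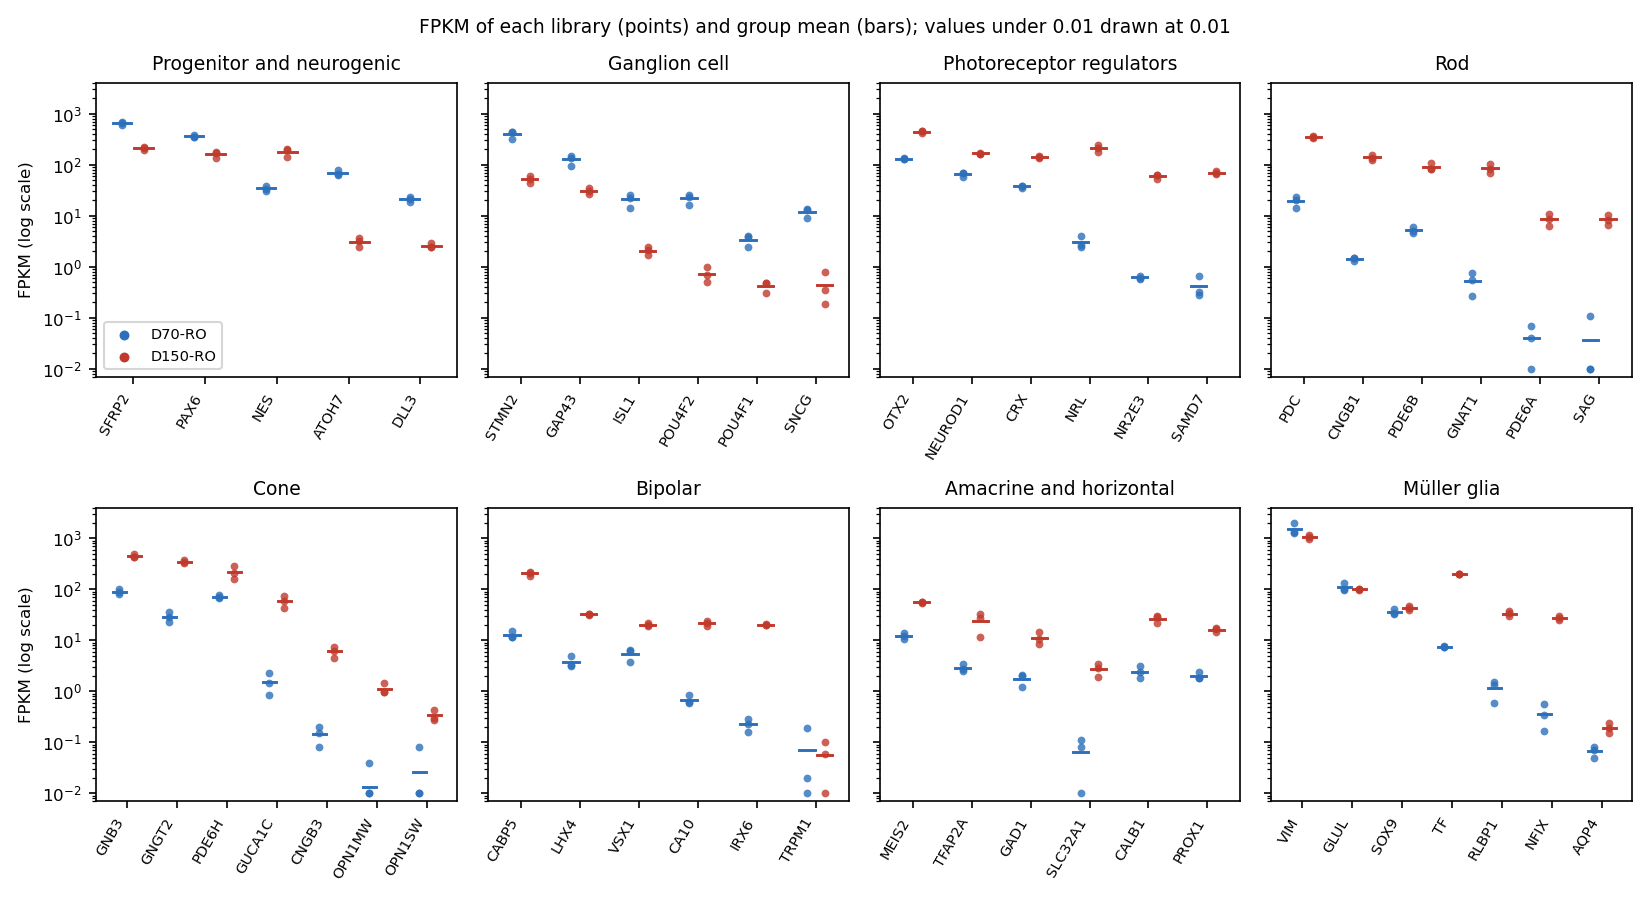
FPKM (y axis, log scale) of genes of 8 panels in each D70-RO (blue) and D150-RO (red) library, as points, with the group mean as a bar. Values under 0.01 are drawn at 0.01. NR2E3, SAMD7, GNAT1, PDE6A and SAG lay under 1 FPKM in all D70-ROs and over 6 in all D150-ROs, while OPN1SW, TRPM1 and AQP4 stayed under 1 FPKM in both groups.

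Most tested rod phototransduction genes rose, several of them from a very low level. Of the 15 rod genes, 13 were tested and 11 called higher, against 16.6% over all genes, with a median of 4.55. Of these 13, 4 passed the filter through the D150-ROs only. GNAT1, the rod transducin alpha subunit, went from 0.27, 0.56 and 0.75 FPKM to 105, 84.1 and 68.2 (7.54, SE 0.24, adjusted p = 8.14e-08 by edgeR). PDE6A, the alpha subunit of the rod phosphodiesterase, went from 0.04, 0.07 and 0.01 to 10.8, 8.68 and 6.24 (7.91, SE 0.37). CNGB1, the beta subunit of the rod cGMP-gated channel, went from 1.30, 1.46 and 1.51 to 154, 138 and 125 (6.05, SE 0.15). In all 3 genes the D150 value was highest in replicate 1 and lowest in replicate 3, and the groups did not overlap.

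SAG, the rod arrestin that ends the light response, had 1 count in the D70-ROs and 547 in the D150-ROs, a ratio of 479 after scaling with a 95% counting interval of 85.7 to 19000. PDC, which binds transducin, had the highest level of the genes called and went from 23.3, 14.5 and 20.1 FPKM to 353, 361 and 341 (3.95, SE 0.15). CNGA1, the alpha subunit of the same channel as CNGB1, was too low for a test, with no count in D70-ROs and 1.01, 0.73 and 0.76 FPKM in D150-ROs, at least 31.0-fold higher against a floor of 3 counts over the D70-ROs. Counting intervals and floors cover counting error only. Of the members tested, GNB1 and REEP6 were not called. The FPKM of GNB1 went from 212, 239 and 227 to 448, 420 and 393, but its counts gave a log2 fold change of −0.16 (SE 0.08), so its direction depends on the unit.

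Most tested cone phototransduction genes were higher at day 150 too. Of 17 genes, 11 were tested and 10 called higher, against 16.6% over all genes, with a median of 2.37. Of the 11, 2 passed the filter through the D150-ROs only, CNGB3 and SLC24A2. PDE6H, the inhibitory subunit of the cone phosphodiesterase, was present at day 70 with 77.3, 68.2 and 71.0 FPKM and went to 162, 206 and 289 (1.38, SE 0.18, adjusted p = 1.49e-04 by edgeR). GNB3, the cone transducin beta subunit, went from 82.6, 102 and 87.3 to 427, 429 and 488 (2.09, SE 0.12). GNGT2, the gamma subunit, went from 35.9, 22.4 and 29.3 to 347, 323 and 373 (3.33, SE 0.15). None of these overlapped between groups, and D150-RO replicate 3 was the highest in each. Channel and regulator genes that were near 0 rose most: CNGB3, the cone channel beta subunit, by 5.09 (SE 0.29), GUCA1C, an activator of guanylate cyclase, by 4.96 (SE 0.30) and SLC24A2, the cone cation exchanger, by 4.81 (SE 0.30). KCNV2, a potassium channel subunit of both photoreceptor types, was 0.79 higher, under the 2-fold limit.

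The cone opsins were not tested. OPN1SW, the blue opsin, had 1 count in D70-ROs and 0.30, 0.28 and 0.44 FPKM in D150-ROs. OPN1MW, listed as the green opsin, had 1 count in D70-ROs and 0.98, 1.43 and 0.99 FPKM in D150-ROs. OPN1MW2 had 6 counts in the D150-ROs, and OPN1LW and OPN1MW3 were listed at 0 in all 6 libraries. OPN1LW and the OPN1MW genes are near-identical copies on the X chromosome, so their reads cannot be assigned to 1 of them with certainty. GRK7, the cone opsin kinase, had 3 counts in D70-ROs and 0.78, 1.00 and 1.56 FPKM in D150-ROs. The cone opsin genes thus stayed at or under 1.43 FPKM in every D150-RO, while every transducin and phosphodiesterase subunit of both lists had at least 6.24 FPKM, the lowest value being that of PDE6A and the opsin maximum that of OPN1MW.

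CRX binds TAATCC-type sites in photoreceptor promoters. To set sequences beside the rise of the phototransduction genes, the motif TAATCC, or GGATTA on the other strand, was searched in windows of 300 bases around RefSeq gene starts, with 250 bases before and 50 after the start. It occurs in 6.36% of all 35116 promoters of that table and in at least 1 promoter of 7.81% of its genes. Of the 32 rod and cone genes, 23 had a promoter there, and 6 held the motif, 4 of 12 rod genes (PDE6A, CNGB1, SAG and REEP6) and 2 of 11 cone genes (OPN1SW and PDE6C). The 4 of these 6 genes that were called higher are shown by the 150 bases before the start, 5′ to 3′ on the gene's strand, on GRCh38.p14, with the motif in capitals.
SAG (chr2:233307666-233307815, plus strand): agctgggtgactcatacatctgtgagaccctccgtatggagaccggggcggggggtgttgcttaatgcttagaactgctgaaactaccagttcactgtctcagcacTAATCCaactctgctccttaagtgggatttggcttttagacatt
CNGB1 (chr16:57971129-57971278, minus strand): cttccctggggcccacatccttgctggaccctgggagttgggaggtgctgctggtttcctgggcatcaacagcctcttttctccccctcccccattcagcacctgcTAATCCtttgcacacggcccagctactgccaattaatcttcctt
PDE6A (chr5:149944794-149944943, minus strand): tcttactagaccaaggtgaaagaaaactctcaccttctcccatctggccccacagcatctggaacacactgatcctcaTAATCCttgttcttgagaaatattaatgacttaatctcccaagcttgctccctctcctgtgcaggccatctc
PDE6C (chr10:93612387-93612536, plus strand): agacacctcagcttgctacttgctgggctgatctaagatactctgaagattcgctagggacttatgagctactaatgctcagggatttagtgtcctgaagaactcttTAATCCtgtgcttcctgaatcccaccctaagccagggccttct
The motif began 44 bases before the start in SAG and CNGB1, 43 in PDE6C and 72 in PDE6A. PDE6C, the cone phosphodiesterase alpha subunit, rose by 2.37 (SE 0.30). A match describes the letters only, and no binding was measured here.

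Genes of the outer segment and genes shared by rods and cones had 22 of 24 tested members called higher and 1 lower. The shares over all genes were 16.6% and 16.7%, and the median of the list was 3.38. Of the 24, 4 passed the filter through the D150-ROs only, IMPG1 among them. RCVRN (recoverin), a calcium sensor that is widely stained as a photoreceptor marker, went from 6.60, 7.72 and 7.5 FPKM to 257, 278 and 282 (5.01, SE 0.11, adjusted p = 3.59e-08 by edgeR). IMPG1, a matrix protein between the outer segments, rose by 6.98 (SE 0.19), RP1, which organises the axoneme, by 6.58 (SE 0.12) and PRPH2, which shapes the disc rim, by 5.94 (SE 0.12). UNC119, a lipid-binding chaperone, had the highest level, from 131, 139 and 138 FPKM to 530, 522 and 537 (2.03, SE 0.08). CRB1, a polarity protein at the junctions of photoreceptors and glia, went the other way, from 109, 97.4 and 109 to 50.2, 46.4 and 47.5 (−1.40, SE 0.08). FSCN2 (−0.75) was not called, and GUCY2F was listed at 0 in all libraries. RDH8, the retinol dehydrogenase of outer segments, had 1 count at day 70 and 17 at day 150.

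At the photoreceptor synapse, 14 of 22 tested genes were called higher, against 16.6% over all genes, with a median of 2.14. Of the 22, 4 passed the filter through the D150-ROs only, CABP4 and CACNA1F among them. The largest rises were those of the ribbon synapse calcium channel and its regulators, CABP4 (5.78, SE 0.50), CACNA1F (5.13, SE 0.13) and CACNA2D4 (4.34, SE 0.13). SNAP25, of the general release machinery, went from 25.6, 17.7 and 28.1 FPKM to 139, 136 and 145 (2.32, SE 0.15), and DLG4 rose by 1.29. VAMP2 (0.96) and SYP (0.89), which are synaptic vesicle proteins, were higher by less than 2-fold and not called. Of the genes for intraflagellar transport and the BBSome, which serve the cilium that bears the outer segment, 4 of 25 were called higher and 2 lower, against 16.6% and 16.7% over all genes. IFT88 (1.66), IFT74 (1.13) and BBS7 (1.10) were among the former, and IFT52 (−1.12) among the latter. Without D70-RO replicate 2 these counts were 2 and 1, since IFT74 (0.90) and BBS7 (0.88) were then under 2-fold.

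Bipolar cells, the relay from photoreceptors to ganglion cells, were marked by a broad rise. Of 21 genes, 18 were tested and 16 called higher, against 16.6% over all genes, with a median of 3.22. Of the 18, 9 passed the filter on low values through the D150-ROs only. CABP5, a calcium-binding protein of bipolar cells, had the highest level and went from 11.8, 15.1 and 11.5 FPKM to 222, 212 and 186 (3.80, SE 0.15, adjusted p = 1.64e-07 by edgeR). LHX4 went from 3.24, 4.88 and 3.18 to 32.8, 31.7 and 33.4 (2.90, SE 0.18) and VSX1, a factor of cone bipolar cells, from 6.34, 3.69 and 6.08 to 22.3, 19.0 and 19.9 (1.70, SE 0.16). The groups did not overlap in these 3 genes. IRX6 (6.24, SE 0.18), NETO1 (6.35, SE 0.39) and CA10 (4.73, SE 0.18) rose from under 1 FPKM. PCP2 had 2 counts at day 70 and 232 at day 150, a ratio of 102 (95% counting interval 27.8 to 845). Parts of the light-evoked cascade of ON bipolar cells were not detected at a level for a test: TRPM1, its cation channel, had at most 0.19 FPKM in any library, and NYX at most 0.08. RGS7 (0.14) and BHLHE22 (−0.87) were not called.

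Of 21 amacrine genes, 13 were tested, 7 were called higher and 2 lower, against 16.6% and 16.7% over all genes, with a median of 1.90. SLC32A1 was 1 of 2 genes that passed the filter through the D150-ROs only, and neither fall was called in a test against a 2-fold change. MEIS2 had the highest level and went from 10.9, 13.9 and 12.0 FPKM to 57.2, 56.6 and 53.5 (1.90, SE 0.12). GAD1, which makes GABA, went from 2.08, 1.98 and 1.20 to 14.5, 10.5 and 8.43 (2.66, SE 0.24), and SLC32A1, the vesicular transporter of GABA and glycine, from 0.08, 0 and 0.11 to 3.50, 2.88 and 1.89 (5.02, SE 0.49). TFAP2A, an amacrine transcription factor, went from 2.50, 3.40 and 2.77 to 27.8, 33.1 and 11.6 (3.17, SE 0.30), with the lowest D150 value in replicate 3. CALB2, which encodes calretinin, fell by 1.49 on the log2 scale (SE 0.29) and BARHL2 fell by 1.36 (SE 0.28). SLC6A9 (0.18) and PCP4 (0.87) were not called. Subtype markers such as TH, of dopaminergic cells, and CHAT, of starburst cells, were at or under 0.70 FPKM in every library. In the horizontal cell list, 7 of 9 genes were tested, MEGF11 through the D150-ROs only. CALB1 (3.14, SE 0.18), PROX1 (2.96, SE 0.11) and MEGF11 (4.64, SE 0.24) were called higher, while ONECUT2 was not called (−0.34). PROX1 and CALB1 are also expressed by other retinal neurons.

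Receptors for GABA, glycine and glutamate had 14 of 28 genes tested and 9 called higher, against 16.6% over all genes. The median was 1.16. Of the 14, 3 passed the filter through the D150-ROs only, GABRG3 and GABRR1 among them, and the count called higher was 4 in a test against a 2-fold change and 18 without the filter. The GABA receptor subunits that rose included GABRG3, with 3 counts at day 70 and 711 at day 150 (ratio 208, 95% counting interval 70.8 to 1010), and GABRR1, with 2 and 341 (ratio 149, interval 41.1 to 1240). The glutamate receptor GRIA1 went from 5.26, 6.99 and 6.85 FPKM to 26.7, 24.7 and 23.5 (1.80, SE 0.14). GRIA4 was not called (−0.18).

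Several genes of mature Müller glia rose. Of 25 genes, 23 were tested, 9 were called higher, 2 lower and 12 not called, against 16.6% higher and 16.7% lower over all genes, with a median of 0.35. Of the 23, 2 passed the filter through the D150-ROs only, DIO2 among them. RLBP1 (CRALBP), the retinoid-binding protein of mature Müller glia, went from 1.34, 1.56 and 0.58 FPKM to 36.9, 34.0 and 29.6 (4.66, SE 0.27, adjusted p = 1.19e-06 by edgeR). TF (transferrin) had 7.30 to 7.72 FPKM at day 70 and 198, 199.9 and 202 at day 150 (4.34, SE 0.13). DIO2, a deiodinase, rose from 0.35 FPKM or less (5.15, SE 0.46), and SPP1 (osteopontin) went from 81.0, 86.8 and 70.0 to 387, 436 and 398 (2.13, SE 0.11). SLC1A3, the glial glutamate transporter (1.41, SE 0.16), CRYAB (1.30, SE 0.19) and CA2 (1.25, SE 0.13) rose less. The groups did not overlap in any of these genes.

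Other genes of the Müller glia list were high at both stages, among them GLUL, whose protein the study uses as a marker of mature Müller glia. VIM (vimentin) had 1333, 2027 and 1245 FPKM at day 70 and 1073, 1136 and 985 at day 150 (−0.76, SE 0.19), CLU had 446 to 737 and 678 to 805 (−0.04, SE 0.19), GLUL (glutamine synthetase) 98.6 to 131 and 97.6 to 102 (−0.38, SE 0.13), DKK3 374 to 398 and 270 to 275 (−0.69, SE 0.08) and SOX9 32.1 to 40.4 and 38.9 to 46.5 (0.04, SE 0.12). None of these 5 was called, although with the length trend removed CLU reached a log2 fold change of 1.04. APOE, the lipid carrier, fell from 89.6, 122 and 71.9 FPKM to 11.5, 15.2 and 14.2 (−3.02, SE 0.22), and CYP1B1 by 2.64 on the log2 scale (SE 0.12). AQP4, the water channel of mature glia, was at or under 0.24 FPKM in every library and was not tested. The nuclear factor I family, which acts in late progenitors and glia, rose: NFIX from 0.17, 0.57 and 0.34 FPKM to 30.6, 27.2 and 25.4 (6.46, SE 0.32), NFIB by 5.19 (SE 0.13) and NFIA by 3.58 (SE 0.23). In their list of 10 gliogenic transcription factors, 7 were called higher, against 16.6% over all genes. Of the 10, 5 passed the filter through the D150-ROs only. HEY1 (0.68), NR2E1 (0.19) and SOX9 were not called.

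Single libraries moved as a block with cell type lists, so replicates of a group were not alike in these genes. In D150-RO replicate 3, all 11 tested cone genes had their highest D150 level by CPM, against 30.4% of all genes, with a median deviation of 0.35 (log2) from the group mean. In the same library, 11 of 13 rod genes and 12 of 13 amacrine genes had their lowest D150 level, against 34.1% of all genes, with median deviations of −0.15 and −0.41. D70-RO replicate 2 had the lowest D70 level for 16 of 23 ganglion cell genes, against 41.9% of all genes, and the highest for 19 of 23 Müller glia genes and 19 of 21 glycolysis genes, against 42.4%. Replicates of a group have no order, and whether the make-up of the pooled ROs caused this was not tested. Without D150-RO replicate 3, the counts called higher were 11 of 13 for rod, 10 of 11 for cone and 7 of 13 for amacrine genes, as with it.

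**Figure D3:**
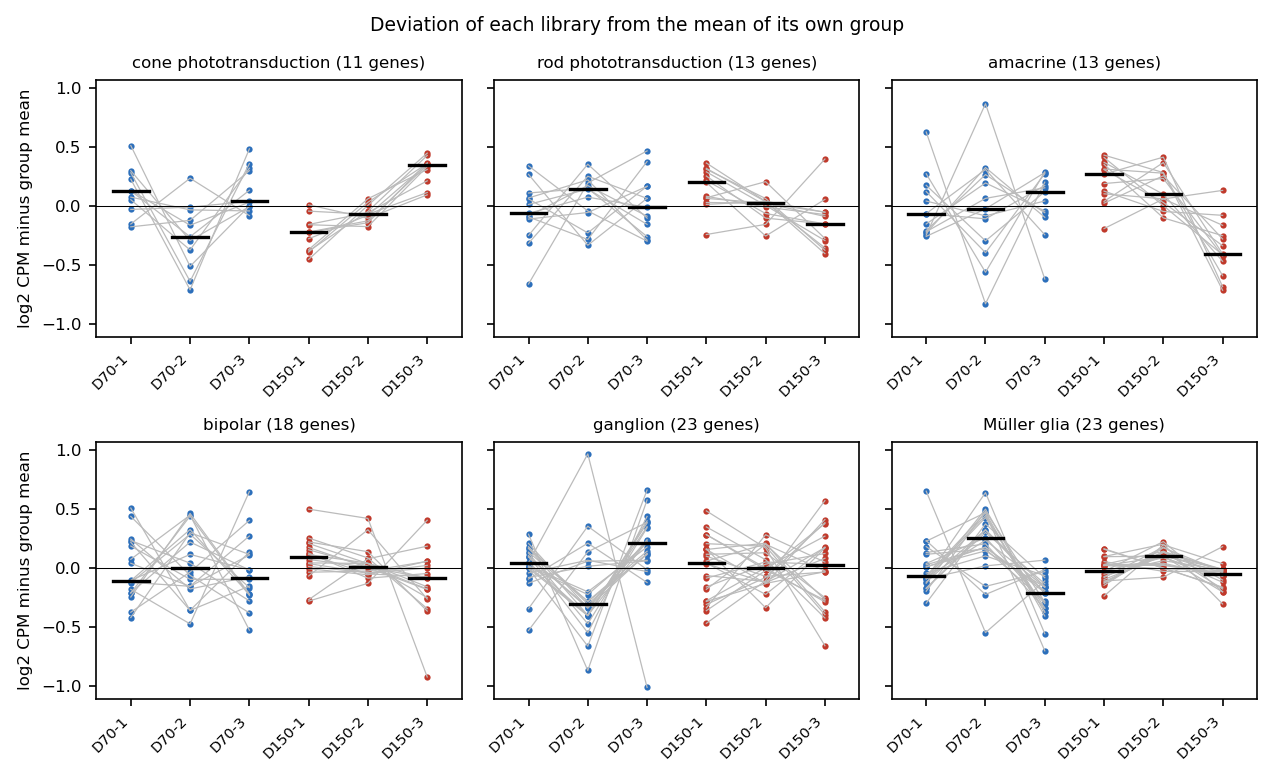
Difference of log2 CPM from the mean of its own group (y axis) in each of the 6 libraries (x axis) for every tested gene of 6 lists. Points are genes, blue in D70-ROs and red in D150-ROs, grey lines join the values of a gene within a group, and black bars are medians. Cone genes were above the group mean and most rod and amacrine genes below it in D150-RO replicate 3, and most ganglion cell genes were below it in D70-RO replicate 2.

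Nearly all ribosomal protein genes were lower in D150-ROs. Of 84 cytosolic ribosomal protein genes tested, 82 were called lower, against 16.7% over all genes, with a median of −2.62. Their summed FPKM was 148200 to 160000 at day 70 and 28030 to 33000 at day 150. RPS2 had the highest level and went from 5267, 5978 and 4660 FPKM to 1054, 1034 and 896 (−2.64, SE 0.13). RPL13 (−3.22, SE 0.12) and RPS19 (−3.18, SE 0.09) fell most, and RPL26L1 (−0.71) and RPL7L1 (−0.22) were not called. Of 21 glycolysis genes, 13 were called lower, against 16.7% over all genes, with a median of −1.33. GAPDH went from 4132, 5956 and 3663 FPKM to 993, 991 and 906 (−2.52, SE 0.19), ALDOA from 1055, 2009 and 1072 to 318, 314 and 323 (−2.34, SE 0.25) and ENO1 from 1352, 2330 and 1555 to 493, 465 and 466 (−2.11, SE 0.20). SLC16A3, a lactate exporter, fell most (−3.32, SE 0.19). D70-RO replicate 2 was the highest of the D70-ROs in each of these 4 genes, and without it 11 genes of the list were called lower. Of 76 subunits of oxidative phosphorylation, 38 were called lower, against 16.7% over all genes. COX7C (−2.05) and COX6A1 (−1.52) were among the 38, and ATP5F1B was not called (−0.63). With the length trend removed, COX7C (−0.78) and COX6A1 (−0.08) were not called either.

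The change followed transcript length over all genes, with the length taken from the deposited counts and FPKM. Of 4 equal classes, the genes with the shortest transcripts, 207 to 1805 bases, had a median log2 fold change of −0.68 with 244 called higher and 1155 lower. The class with the longest, 4239 to 27181 bases, had a median of 0.56 with 970 higher and 162 lower. With a smooth trend on length removed from each library, 62 ribosomal genes (median −1.32) and 4 subunits of oxidative phosphorylation (median 0.06) were called lower. Glycolysis genes called lower were then 9, with a median of −0.87, and 3448 genes were called in all. The FPKM of all genes summed to 545712 to 570482 at day 70 and 387551 to 406276 at day 150, and the 10 genes with the most counts held 8.19% to 9.92% of all counts at day 70 and 4.71% to 5.09% at day 150. Whether RNA quality, library preparation or the cells account for this trend was not tested.

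**Figure D4:**
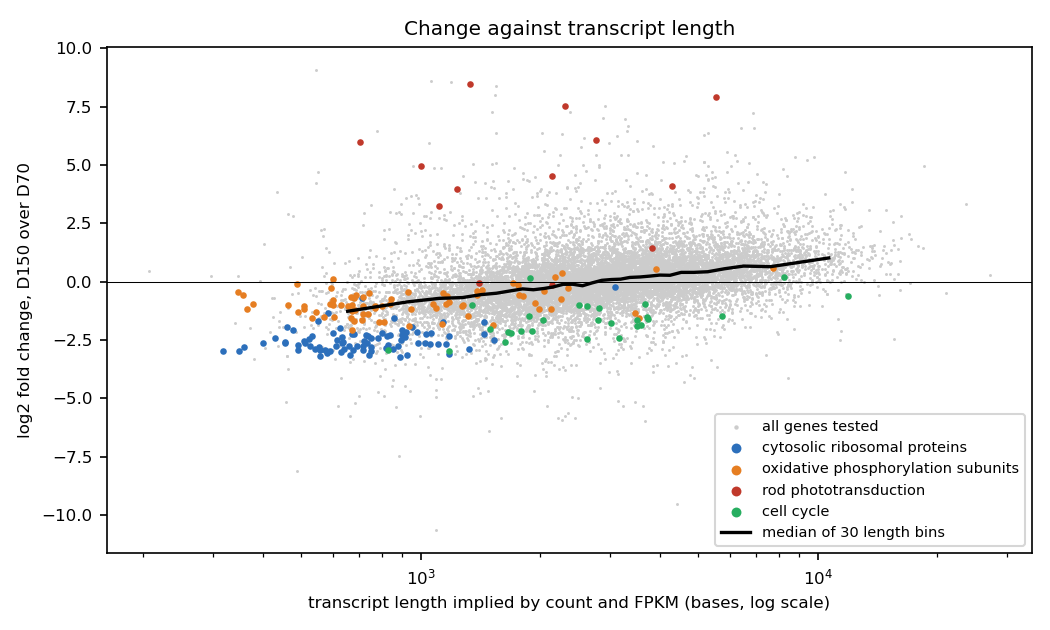
Log2 fold change (y axis) against the transcript length implied by count and FPKM (x axis, log scale) for all 12855 genes tested (grey), with 4 lists in colour and the median of 30 length bins as a black line. Most ribosomal genes lay below the line and most rod genes above it, and the line rose from the shortest to the longest genes.

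Markers of cells outside the neural retina were measured as well. Of the lens and cornea list, 9 of 13 genes were tested and 7 called lower, against 16.7% over all genes. The median was −3.05, but 4 of the 9 passed the filter through the D70-ROs only. CRYBB1, a lens crystallin, went from 26.3, 14.1 and 18.5 FPKM to 1.87, 3.12 and 0.52 (−3.64, SE 0.45), and the summed level of the list from 44.3 to 61.1 FPKM to 7.56 to 10.6. In the pigment epithelium list, PMEL, a melanosome protein, went from 97.6, 130 and 79.9 FPKM to 1.31, 1.29 and 1.27 (−6.40, SE 0.26, adjusted p = 2.21e-07 by edgeR), while TTR rose (2.44, SE 0.54) and DCT (−0.50) and SERPINF1 (0.64) were not called. The summed level of this list was 153.8 to 224.5 FPKM at day 70 and 144.1 to 155.0 at day 150, and D70-RO replicate 2 was the highest D70-RO for all 6 tested members. RPE65, the isomerase that defines pigment epithelium, was at or under 0.12 FPKM in every library. PAX2, of the optic stalk and of astrocytes, went from 16.9, 29.3 and 5.67 FPKM to 3.76, 3.03 and 3.93 (−2.81, SE 0.54), GJA1 fell by 2.55 (SE 0.15), and the glial filament GFAP was low and rose from 0.22 to 1.03 FPKM to 1.73 to 1.85 (1.37, SE 0.38). The optic stalk and astrocyte list of 7 genes, 4 of them tested, summed to 29.6 to 53.7 FPKM at day 70 and 10.9 to 12.0 at day 150.

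Of forebrain genes, DLX1 (−1.95) and DLX2 (−1.76) fell, and EOMES rose (2.57). SOX1, a neural progenitor factor that the retina lacks, had 24 counts at day 70 and 2 at day 150. The forebrain list, with 4 of 13 genes tested, summed to 15.6 to 19.3 FPKM at day 70 and 9 to 9.34 at day 150. In the mesenchyme and vessel list, with 7 of 11 genes tested and sums of 34.6 to 44.2 and 28.6 to 33.2 FPKM, 3 genes were called lower and 1 higher. The shares over all genes were 16.7% and 16.6%. ACTA2, smooth muscle actin, fell by 4.17 (SE 0.29) and PDGFRA rose by 4.21 (SE 0.39) from 0.25 to 0.53 FPKM to 3.90 to 8.35. LUM (−1.51) and TWIST1 (−1.48) were the other genes called lower. PDGFRB (0.56) was not called, and the endothelial CDH5 had 4 counts in all. In the microglia and blood list of 10 genes, with sums of 1.37 to 2.34 and 3.15 to 5.18 FPKM, CD68 alone was tested and not called (0.70), and PTPRC was at or under 0.03 FPKM. In the oligodendrocyte and Schwann cell list of 6 genes, MOG was listed at 0, and MBP rose (1.20, SE 0.24). Of 8 pluripotency genes, 2 were tested and not called, and the list summed to 6.04 to 9.05 and 5.36 to 7.64 FPKM. The part of other cells in the neural retina results was not tested.

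The largest changes over all genes were partly those of genes at 0 in a group. TMEM244 (215 counts in D150-ROs), OR6B3 (155) and P3R3URF-PIK3R3 (134) had none in D70-ROs, and were at least 62.8-fold, 45.3-fold and 39.1-fold higher. The last is a readthrough gene that shares its sequence with PIK3R3. NPVF, which encodes neuropeptide VF, went from 0.17, 0.22 and 0.05 FPKM to 62.0, 68.6 and 57.5 (8.56, SE 0.24, adjusted p = 5.10e-08 by edgeR). SAG, PDE6A, GNAT1 and GABRG3 were also among the 10 largest rises, beside the GABA receptor subunit GABRR3, with 2 and 420 counts (ratio 184, 95% counting interval 50.6 to 1520), and IFI44, with 1 and 393 (ratio 344, interval 61.5 to 13600). Among the falls, SLX1A (540 counts in D70-ROs), CXCR5 (256), AC034102.2 (98) and CGB8 (61) had none in D150-ROs and were at least 205-fold, 97.4-fold, 37.3-fold and 23.2-fold lower. SLX1A and CGB8 have near-identical copies, so their values are uncertain. FOXD1, a factor of the temporal retina, had 179 and 3 counts (ratio 68.1, interval 22.9 to 333). TNFRSF1B (−5.95, SE 0.18) and LRRC10B (−5.84, SE 0.27) were also in this group, with PMEL and FGF19.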

How the data were processed

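RNA from the NR layers of pooled ROs was sequenced as poly(A) libraries. The authors deposited expected counts per gene, estimated with RSEM, and FPKM values, and the submitters' processing notes also name HISAT2, StringTie and DESeq2, without versions. The genome build and annotation are not given in the sources used here. All 19684 gene IDs occur in GENCODE 29. The 24 columns of the other tables were not used.

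Expected counts were rounded to whole numbers. Genes with at least 1 FPKM in at least 3 of the 6 libraries were tested with edgeR 4.0.16 (R 4.3.3), with TMM scaling, the quasi-likelihood F test and Benjamini-Hochberg adjustment over 12855 genes. The median log2 ratio of the deposited FPKM was 0.22 above that of the fit. On simulated counts for these 12855 genes, edgeR recovered 99% of 100 genes changed 4-fold and 100% of 100 changed 8-fold, with 4 false calls. These genes changed up and down alike, and all others had equal means in both groups. The data held a length trend and calls for 33.3% of genes, so the simulation does not measure false calls under those conditions. Ratios of genes with 1 to 3 counts in a group carry exact 95% counting intervals, and genes at 0 were set to a floor of 3 counts over the group.

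The comparison and the gene lists were chosen with earlier results of these data known, so no list is independent support for its direction. Named genes were, for each list, the 4 with the highest mean FPKM and the 3 largest called rises and falls, the 10 largest rises and falls of all genes without overlap between groups, genes that the study names, and members too low to test. SOX2, SIX3, THRB, RXRG, REEP6, FSCN2, RGS7, BHLHE22, NHLH2, RPL7L1, RPL26L1, PDE6C and all genes of the closing section that are in no list were named after their values were seen. Alternatives were DESeq2 1.42.0, limma 3.58.1 on log2(FPKM + 1) and log2(FPKM + 0.1), other scalings and filters, a test against a 2-fold change, a fit with the hiPSC libraries, a replicate block, removal of the trend on transcript length and leaving out each library. A few genes that this rule picks are not reported here. Promoter windows came from RefSeq on GRCh38.p14.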

Additional observations from a re-analysis of the deposited data

How the results depend on the processing

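Counts of calls ranged from 2830 (1412 higher, 1418 lower) in a test against a 2-fold change to 5290 without a filter, against 4276. DESeq2 called 4281 genes, 4250 of them shared with edgeR in the same direction. Of the genes called, 49.8% were higher, against 43.4% with upper-quartile scaling, which moved the median of all genes to −0.11, and 63.3% and 64.4% with limma on log2(FPKM + 1) and log2(FPKM + 0.1), where the medians were 0.19 and 0.21. Limma with a pseudocount of 1 called 1302 genes lower. Leaving out 1 library gave 1969 to 2264 genes higher and 2009 to 2260 lower. Among lists, 8 neurogenic genes called lower became 5 in the test against a 2-fold change, and 4 and 5 with limma. The 38 subunits of oxidative phosphorylation called lower became 20 in the test against a 2-fold change, 21 with limma at either pseudocount, 4 with the length trend removed and 28 to 45 without 1 library. With a minimum of 5 FPKM, 4 amacrine and 4 gliogenic genes were called higher, since fewer genes were tested. Receptor genes called higher went from 9 to 18 without a filter, 5 with a minimum of 5 FPKM and 4 in the test against a 2-fold change. Cilium genes called higher went from 4 to 1 in that test, 8 with limma at a pseudocount of 0.1 and 2 without D70-RO 2. Lens and cornea genes called lower went from 7 to 1 with a minimum of 5 FPKM. Counts of 3 or fewer in the other lists moved to 0, 1 or more under several alternatives.

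Libraries with equal replicate numbers showed no shared deviation from their group means (correlations of −0.06, −0.02 and 0.03). With 3 libraries per group this cannot tell whether equal numbers share an experiment. The fit with a replicate block called 4317 genes and changed the call of no named gene. The other values recomputed, for single genes and for such smaller list counts, were counted once for each alternative. Of these values, 3867 kept direction and call or stayed within 1.5 times, and 59 values of list counts moved by more. Among the values of single genes, 46 lost and 26 gained a call, so a gene can be counted more than once. A further 26 values reversed, none of which was called in the edgeR fit, and the cause was not tested. With the length trend removed, these were THRB −0.25, GNB1 0.047, REEP6 0.54, L1CAM −0.14, SOX9 −0.24, CLU 1.04 and RPL26L1 0.51. With limma they were GNB1 0.89 (both pseudocounts), REEP6 0.25 and 0.26, CLU 0.36 (both) and RPL7L1 0.14 (both). With upper-quartile scaling they were THRB −0.041 and SOX9 −0.066, and with the replicate block CLU 0.011. Without 1 library, THRB ran from −0.11 to 0.17, REEP6 from −0.18 to 0.14, RGS7 from −0.086 to 0.43, SOX9 from −0.047 to 0.16 and CLU from −0.21 to 0.25, and the libraries whose removal turned the sign were D70-RO 1 or D150-RO 3 for THRB, D70-RO 2 for REEP6 and CLU, D70-RO 1 for RGS7, and D70-RO 1, D70-RO 3 or D150-RO 2 for SOX9. Calls lost or gained without 1 library included those of IFT74 and BBS7 (without D70-RO 2), SIX3 (−1.02 without D70-RO 3, −1.01 without D150-RO 2, and also without D70-RO 1), PCNA, VAMP2 (1.04 without D70-RO 2) and PCP4 (1.22 without D70-RO 1), nearly all next to the 2-fold limit. At the depth of 11349600 to 19722949 counts, genes under 1 FPKM in most libraries, the cone opsins among them, could be described by counts only.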

Other observations

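Genes outside the lists that changed at least 16-fold and had high levels were looked at after their values were seen. Among those that rose, 2 belong to photoreceptors: MPP4, a scaffold protein of their synapse, went from 2.48, 2.82 and 3.07 FPKM to 97.8, 98.3 and 119 (log2 fold change 4.89), and RAX2, a homeobox factor, from 2.64, 2.93 and 2.57 to 100.5, 90.0 and 101 (5.00). The others were not photoreceptor genes by their known roles. AKAP9, a centrosomal scaffold, went from 5.86, 2.10 and 8.06 FPKM to 126, 122 and 137 (4.28), and ABCA7, a lipid transporter, from 6.17, 6.44 and 5.70 to 137, 115 and 115 (4.07). CD44, a hyaluronan receptor that Müller glia carry on their apical processes, went from 1.97, 2.65 and 1.58 to 81.2, 89.1 and 76.1 (5.45). FLT1, a VEGF receptor, went from 0.90, 1.27 and 1.14 to 60.6, 60.5 and 55.3 (5.55). In all 6 genes the groups did not overlap.

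Among the falls of this size, MDK (midkine), a growth factor of the developing nervous system, had the highest level and went from 798, 936 and 755 FPKM to 52.1, 57.8 and 46.4 (log2 fold change −4.22). IFITM1, an interferon-inducible membrane protein, went from 196, 204 and 148 to 8.60, 8.81 and 12.0 (−4.45). PRPH, the neuronal filament peripherin, which is not the photoreceptor gene PRPH2, went from 99.4, 68.2 and 97.2 to 2.05, 3.15 and 2.71 (−5.61), and was lowest of the D70-ROs in replicate 2, as most ganglion cell genes were. ALDH1A1, an enzyme of retinoic acid synthesis in the dorsal retina, went from 43.3, 51.0 and 75.5 to 2.10, 2.08 and 2.02 (−5.31). Of translation genes outside the ribosomal list, the elongation factor EEF1A1 went from 14611, 16122 and 13674 FPKM to 3749, 4058 and 3631 (−2.19), and EEF1G (−2.34), EEF2 (−2.42), RACK1 (−2.43) and TPT1 (−2.34) fell by similar amounts.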
